A study of Mus musculus with 2 samples.

Results

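The B-cell receptor complex and its proximal signalling proteins were followed here through 9 genes of mouse spleen cells, Cd79a, Cd79b, Cd22, Blk, Btk, Blnk, Syk, Lyn and Bank1. They were chosen by symbol, and all 9 were found among the 30457 genes listed in at least 1 of the 2 read tables. The tables hold 1 library each of TAS-Seq, a method that amplifies bead-bound cDNA after adding a homopolymer tail with terminal transferase, and of BD WTA, the whole-transcriptome kit of the BD Rhapsody bead system. The cells came from 3 pooled spleens of female C57BL/6J mice that were 10 weeks old when Lewis lung carcinoma cells were injected under the skin. All of them had received 200 µg of anti-CD4 antibody on days 5 and 9, and spleens were taken on day 12, frozen and thawed, so no untreated or tumour-free group was present. A single cartridge was loaded with 2000 cells, and its beads were divided between the methods. With 1 library per method there was no test, and every interval below covers counting error only. Reads were not collapsed to molecules, so reads are not independent and these intervals are too narrow.

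The B-cell receptor is a membrane immunoglobulin that is held by a heterodimer of the Cd79a and Cd79b proteins, whose cytoplasmic tails carry tyrosine activation motifs. On antigen binding, the Src family kinases Lyn and Blk phosphorylate these tails, the kinase Syk docks on them, and Syk phosphorylates the adaptor Blnk, which brings the kinase Btk to its substrate phospholipase C gamma. Cd22 is a sialic acid binding receptor that recruits the phosphatase encoded by Ptpn6 and dampens the signal, and Bank1 is a scaffold protein that binds Lyn. In the spleen, follicular B cells recirculate through the follicles, and marginal zone B cells lie beside the marginal sinus and answer quickly to blood-borne antigen.

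In the GENCODE annotation of build GRCm38 all 9 are protein-coding genes on separate stretches of the genome. Cd79a (chr7:24897381-24902197, + strand), Syk (chr13:52583173-52648792, + strand) and Lyn (chr4:3678115-3813122, + strand) are read from the forward strand. Cd79b (chr11:106311341-106314762), Cd22 (chr7:30865402-30880342), Blk (chr14:63372836-63417037), Btk (chrX:134542336-134583570), Blnk (chr19:40928927-40994535) and Bank1 (chr3:136053363-136326066) are read from the reverse strand. No other gene overlapped any of them on the same strand. Of the 30-base stretches of their transcripts, 12.5% in Cd79a were also found in Gm32220 and 17.7% in Lyn were also found in other genes, among them Gm11787, so reads from those stretches can be assigned to either gene. For the other 7 genes the shared part was at most 2.72%.

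Promoter sequences from RefSeq (GRCm38.p6) were at hand for 6 of the 9 genes, in 7 windows. They were searched on both strands, over the 250 bases before the start, for the EBF motif CCCNNGGG, the octamer ATGCAAAT, the PU.1 motif GAGGAAGT and the E2A E-box CAGGTG. These letters were present in 11.8%, 1.60%, 2.44% and 17.2% of all 32851 promoter windows. Among the 6 genes, the E-box was found for Cd79a, Cd22, Blnk, Bank1 and both starts of Syk, the EBF motif for Cd22 and Bank1, the octamer for Blnk, and none of these letters for Btk. The parts of the windows outside annotated exons are shown for 3 genes whose reads lay almost wholly in B cells (Cd79a, Cd22 and Bank1) and for the second start of Syk, whose reads were also found in NK and myeloid cells, 5′ to 3′ on the strand of the gene, with the motif letters in capitals. A match in this window is a description of letters and not a binding site.
Cd79a (chr7:24897247-24897380, + strand): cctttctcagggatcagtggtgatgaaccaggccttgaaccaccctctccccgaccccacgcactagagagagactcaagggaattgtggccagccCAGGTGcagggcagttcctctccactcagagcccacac
Cd22 (chr7:30879029-30879176, - strand): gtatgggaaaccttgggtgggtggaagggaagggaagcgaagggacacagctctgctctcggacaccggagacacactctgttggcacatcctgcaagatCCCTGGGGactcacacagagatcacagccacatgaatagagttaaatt
Bank1 (chr3:136326067-136326316, - strand): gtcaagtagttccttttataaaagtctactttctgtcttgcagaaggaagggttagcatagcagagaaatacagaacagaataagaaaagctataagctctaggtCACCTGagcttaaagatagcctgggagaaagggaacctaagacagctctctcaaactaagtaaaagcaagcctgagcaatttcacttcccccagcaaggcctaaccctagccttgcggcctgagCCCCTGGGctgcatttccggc
Syk (chr13:52596632-52596852, + strand): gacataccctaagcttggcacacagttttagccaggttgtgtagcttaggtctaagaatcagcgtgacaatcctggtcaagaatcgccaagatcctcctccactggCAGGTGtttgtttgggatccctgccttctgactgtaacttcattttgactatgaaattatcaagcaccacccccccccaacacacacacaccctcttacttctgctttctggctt

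TAS-Seq gave 736 barcodes with 38656790 reads and BD WTA gave 716 barcodes with 31608259 reads, and no barcode was shared between them. After a filter on genes per cell and mitochondrial reads, 732 and 708 cells were kept. The 9 genes and the other genes of the pathway were left out of the clustering, except the marginal zone marker Cr2, although genes that vary together with them were used. Clusters were named from marker lists that held none of the 9 genes. B-like cells numbered 396 in TAS-Seq and 359 in BD WTA, T-like cells 275 and 281, NK-like cells 20 and 26, neutrophil-like cells 10 and 11, and cells called monocyte or DC-like 14 and 15. Of the cells called monocyte or DC-like, 8 and 5 came from a cluster that raised 5 plasmacytoid dendritic cell (DC) markers. These markers summed to 3097 and 413 CPM (reads per 1000000 reads of the class) in the whole class, so its make-up differed between the libraries. Neutrophil-like and monocyte or DC-like cells together are called myeloid-like. Of the B-like cells, 199 and 152 were follicular-like, 57 and 52 marginal zone-like, and the rest, 140 and 155, were not named further. The summed level of 8 B-cell markers was 8222 CPM (reads per 1000000 reads of the class) in B-like cells against 85.1 CPM in T-like cells in TAS-Seq, and 6653 against 9.22 CPM in BD WTA. Median depth was 42286.5 reads per B-like cell and 52534 per T-like cell in TAS-Seq, and 35599 and 42087 in BD WTA. To compare shares of cells, each cell was thinned to 20000 reads, which left 386 of 396 and 328 of 359 B-like cells and 266 of 275 and 261 of 281 T-like cells. Without thinning, the share of B-like cells with a read ran from 40.7% for Btk to 99.7% for Cd79a in TAS-Seq and from 28.7% to 99.7% in BD WTA.

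The whole set separated B-like from T-like cells. All 9 genes were at least 2-fold higher in B-like than in T-like cells in each library, where 17.0% of the 9962 genes compared in TAS-Seq and 16.6% of the 9253 compared in BD WTA were. All 9 passed the filter of at least 10 CPM and 10 cells in a class, in every comparison that starts from B cells. The median log2 ratio of the 9 genes was 6.19 in TAS-Seq and 7.06 in BD WTA, against 0.10 and 0.00 over all genes compared.

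**Figure D1:**
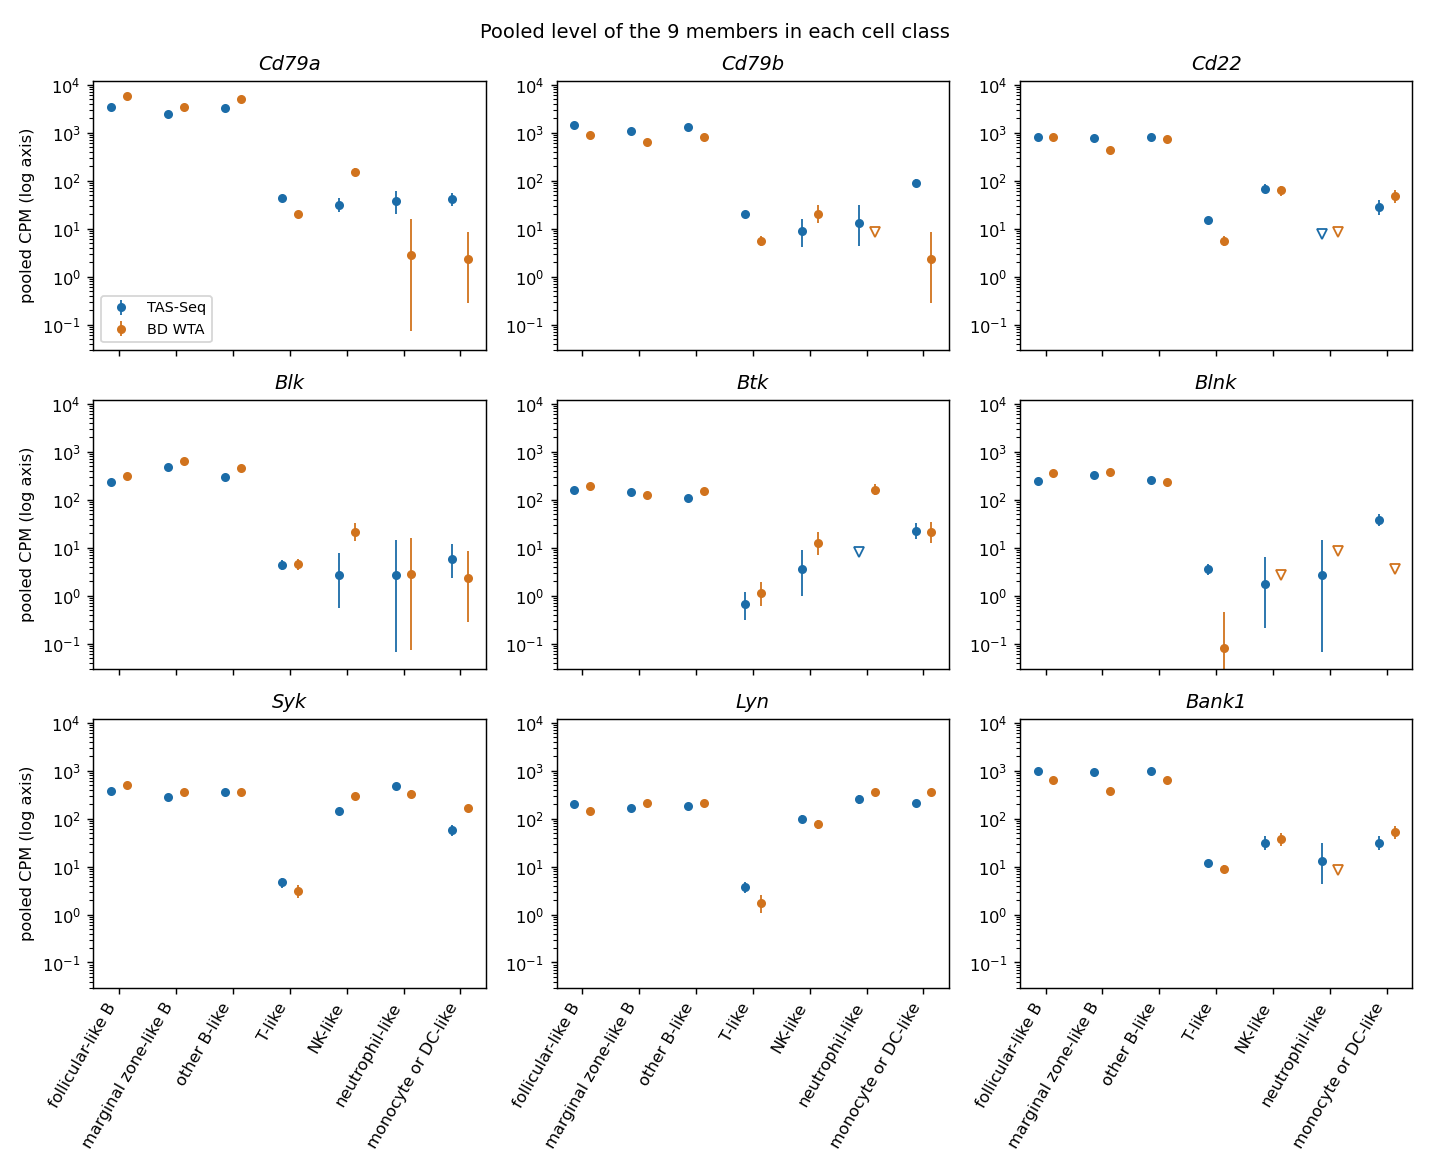
Level of each gene in 7 cell classes, as pooled CPM on a log axis, with TAS-Seq in blue and BD WTA in orange. Bars are 95% exact Poisson intervals of the reads, and open triangles mark classes with no read, drawn at the level that 3 reads would give. Cd79a stood between 2506 and 5714 CPM in the 3 B-cell classes, and Syk and Lyn lay near their B-cell level in NK-like or myeloid classes. The Btk level of 162 CPM in BD WTA neutrophil-like cells rests on 2 cells.

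The receptor chains were the most widely detected genes of the set. Cd79a stood at 3156 CPM (95% Poisson interval 3131 to 3182) in TAS-Seq B-like cells and at 4852 CPM (4817 to 4886) in BD WTA B-like cells, and at 44.6 and 20.7 CPM in T-like cells. The fold over T-like cells was 70.9 in TAS-Seq and 234 in BD WTA. With every cell thinned to 20000 reads, Cd79a had a read in 386 of 386 and 328 of 328 B-like cells. In TAS-Seq, 51.5% of T-like cells, 10 of 20 NK-like cells and 12 of 23 myeloid-like cells also had a Cd79a read at that depth, a like share in classes that should lack the gene, so a single Cd79a read in TAS-Seq did not mark a B cell. The share of T-like cells with at least 5 reads was 1.13% in TAS-Seq and 1.92% in BD WTA, against 100% and 99.4% of B-like cells. In BD WTA a single Cd79a read was found in 6.90% of T-like cells.

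Cd79b, the partner chain, stood at 1325 CPM (1309 to 1342) in TAS-Seq and at 801 CPM (787 to 815) in BD WTA B-like cells. T-like cells held 304 and 68 reads, and the folds over them were 66.3 and 146. At equal depth, 96.1% and 89.3% of B-like cells had a Cd79b read, against 18.8% and 1.92% of T-like cells. Since Cd79a had a read in every B-like cell at that depth, Cd79b could not be seen without it. Cd79a was seen without Cd79b in 15 of 386 cells (3.89%) in TAS-Seq and in 35 of 328 cells (10.7%) in BD WTA. Per Cd79b read, 2.38 Cd79a reads were counted in TAS-Seq and 6.06 in BD WTA, a ratio that differed between these 2 libraries.

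Cd22, the inhibitory receptor, stood at 806 CPM (793 to 819) in TAS-Seq and 687 CPM (674 to 700) in BD WTA B-like cells, 52.1-fold and 123-fold above T-like cells. It was detected in 88.1% and 74.4% of B-like cells against 18.4% and 3.83% of T-like cells. No Cd22 read was found in the 10 and 11 neutrophil-like cells, so the fold over them was at least 102 in TAS-Seq and at least 80.7 in BD WTA. In NK-like cells Cd22 stood at 68.6 and 62.8 CPM, and the 5 cells with the most reads held 97.4% and 100% of them.

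Blk, the Src family kinase that is largely restricted to B cells, stood at 317 CPM (309 to 325) in TAS-Seq and at 456 CPM (445 to 466) in BD WTA B-like cells, and at 4.34 and 4.53 CPM in T-like cells. Blk was detected in 53.4% and 50.6% of B-like cells against 10.5% and 1.92% of T-like cells. In the myeloid-like cells only 8 and 3 Blk reads were counted. In NK-like cells 3 reads were counted in TAS-Seq and 24 in BD WTA, the latter in 1 cell.

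Lyn, a Src family kinase that myeloid cells also use, showed another pattern. In B-like cells Lyn stood at 187 CPM (181 to 193) in TAS-Seq and 188 CPM (181 to 195) in BD WTA, 49.9-fold and 111-fold above T-like cells, where it stood at 3.75 and 1.70 CPM. In myeloid-like cells it stood at 222 CPM (199 to 247) and 351 CPM (318 to 386), and the log2 ratio of B-like over myeloid-like cells was -0.25 (-0.41 to -0.08) in TAS-Seq and -0.90 (-1.05 to -0.75) in BD WTA. Neutrophil-like cells at 251 and 352 CPM and monocyte or DC-like cells at 213 and 350 CPM had overlapping intervals within each library. NK-like cells stood in between at 98.5 and 76.2 CPM. Cells with a Lyn read at equal depth were 14 of 23 and 10 of 21 myeloid-like, 6 of 20 and 4 of 23 NK-like, and 12 of 266 and 1 of 261 T-like cells. The order of classes was therefore myeloid-like, B-like, NK-like and T-like in both libraries. The order of the first 2 classes rests on 24 and 26 myeloid-like cells, of which 5 held 63.9% and 70.1% of the Lyn reads.

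Syk, the kinase that docks on the phosphorylated receptor tails, stood at 350 CPM (342 to 359) in TAS-Seq and 409 CPM (399 to 419) in BD WTA B-like cells. T-like cells held 4.67 and 3.07 CPM, for log2 ratios of 6.23 and 7.06. In NK-like cells it stood at 145 CPM (124 to 169) and 292 CPM (261 to 325), and the B-like cells exceeded them by a log2 ratio of 1.27 in TAS-Seq and only 0.49 (0.33 to 0.65) in BD WTA. Neutrophil-like cells stood at 468 CPM (402 to 542) in TAS-Seq and 326 CPM (269 to 392) in BD WTA, on opposite sides of the B-like level. Monocyte or DC-like cells were lower, at 57.0 and 166 CPM. A Syk read was found at equal depth in 63.5% and 53.7% of B-like, 35.0% and 34.8% of NK-like, 52.2% and 42.9% of myeloid-like, and 7.52% and 1.15% of T-like cells. Syk was thus found in B-like, NK-like and neutrophil-like cells at levels that lay well above those of T-like cells.

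Btk, the kinase that is lost in X-linked agammaglobulinaemia, had the fewest reads of the set in B-like cells, 2736 in TAS-Seq and 2465 in BD WTA, or 141 CPM (136 to 147) and 159 CPM (153 to 165). It was detected in 35.0% and 29.0% of B-like cells and in 1.88% and 0.383% of T-like cells, with folds of 214 and 140. Among neutrophil-like cells, none of 10 TAS-Seq cells had a Btk read, whereas 2 of 11 BD WTA cells held 57 reads, which gave 162 CPM (122 to 210), a level like that of B-like cells that rests on these 2 cells. Monocyte or DC-like cells stood at 22.6 and 21.2 CPM, in 3 cells of each library.

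Blnk, the adaptor that Syk phosphorylates, stood at 266 CPM (259 to 274) in TAS-Seq and 317 CPM (309 to 326) in BD WTA B-like cells. BD WTA T-like cells held 1 read, which set a log2 ratio of 11.94 with a wide interval (9.46 to 17.24). TAS-Seq T-like cells held 54 reads and gave a log2 ratio of 6.23 (5.84 to 6.64). No Blnk read was found in NK-like or myeloid-like cells of BD WTA, for a fold of at least 118 and at least 127. In TAS-Seq, monocyte or DC-like cells held 46 Blnk reads (38.5 CPM), and the summed B-cell markers stood at 977 CPM in these same cells, with 2 of 13 cells holding at least 2 B-cell markers at 5 reads. This TAS-Seq class also held the plasmacytoid DC-like cells named above. The part of those 2 cells and of the plasmacytoid DC-like cells in the Blnk level was not tested.

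Bank1, the scaffold protein, stood at 963 CPM (949 to 977) in TAS-Seq and at 568 CPM (556 to 580) in BD WTA B-like cells, 81.3-fold and 64.5-fold above T-like cells. It was detected in 86.5% and 72.0% of B-like cells against 16.2% and 1.92% of T-like cells. In BD WTA the 5 T-like cells with the most Bank1 reads held 99.1% of the reads of that class. NK-like and myeloid-like cells stood between 26.7 and 36.8 CPM in the 2 libraries.

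**Figure D2:**
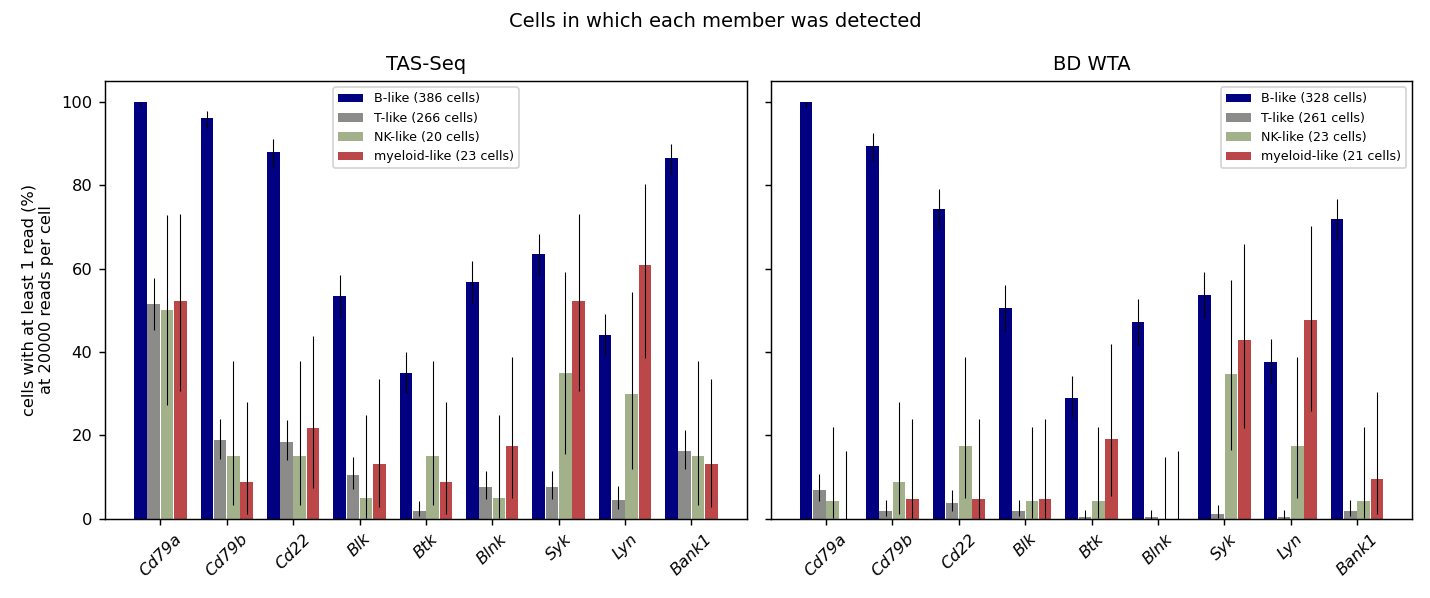
Percentage of cells with at least 1 read of each gene after every cell was thinned to 20000 reads, by class, with 95% exact binomial intervals as bars. T-like cells in grey give the share found in a class that should lack most of these genes. For Lyn the myeloid-like share exceeded the B-like share in TAS-Seq (60.9% against 44.0%) and in BD WTA (47.6% against 37.5%), with overlapping intervals.

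The amount found in T-like cells of TAS-Seq followed the amount in B-like cells closely. For 8 of the 9 genes the fold of B-like over T-like cells lay between 49.9 and 81.3, and the summed 8 B-cell markers gave 96.6. Btk, at 214, rested on 10 T-like reads. In BD WTA the folds were larger for 7 of the 9 genes, the exceptions being Btk and Bank1, and the summed markers gave 722. Reads of every gene of the set were spread over more T-like cells in TAS-Seq, from 9 of 275 cells for Btk to 212 for Cd79a, than in BD WTA, from 1 of 281 cells for Blnk to 33 for Cd79a. The pooled T-like levels of Blk and Btk were nevertheless slightly higher in BD WTA (4.53 against 4.34 CPM and 1.13 against 0.658 CPM).

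Against NK-like cells, 8 of the 9 genes were at least 2-fold higher in B-like cells in each library, where 31.0% of all genes compared in TAS-Seq and 31.6% in BD WTA were. The gene that was not was Lyn in TAS-Seq, at 1.90-fold (log2 ratio 0.92, 0.65 to 1.21), and Syk in BD WTA, at 1.40-fold. The NK-like class of BD WTA included 1 cell with reads of 7 of the 9 genes, which held all 173 Cd79a reads of the class. Against myeloid-like cells, 8 genes in TAS-Seq and 7 in BD WTA were at least 2-fold higher in B-like cells, where 30.3% and 41.4% of all genes were. Lyn was below in both libraries, and Syk was at 2.25-fold in TAS-Seq and 1.92-fold in BD WTA. Among the receptor chains, Blk and Bank1, the smallest fold over myeloid-like cells was 15.5, for Bank1 in BD WTA. Btk lay nearer, at 159 CPM in B-like against 62.5 CPM in myeloid-like cells of BD WTA, where 5 cells held the reads. In TAS-Seq Btk stood at 141 against 17.2 CPM and Blnk at 266 against 29.9 CPM. Scaling by TMM factors moved the median of all genes by 0.16 and 0.29 against NK-like cells and by 0.14 against myeloid-like cells of BD WTA. With it, all 9 genes were at least 2-fold higher than in NK-like cells of TAS-Seq, and 8 than in myeloid-like cells of BD WTA.

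The number of genes of the set detected in a single cell was counted at 20000 reads. A median of 6 of the 9 genes (quartiles 5 and 7) was detected per B-like cell in each library. All 9 were detected together in 18 of 386 TAS-Seq and 8 of 328 BD WTA cells, and no B-like cell had none of them, which allows a share of up to 0.777% and 0.915%. T-like cells had a median of 1 (quartiles 1 and 2) in TAS-Seq and 0 (quartiles 0 and 0) in BD WTA. NK-like cells had 2 and 1, and myeloid-like cells 2 and 1. At least 5 of the 9 genes were found in 89.9% and 76.2% of B-like cells but in 0.752% of TAS-Seq T-like cells and in none of 261 BD WTA T-like cells. With 5 reads asked of a gene in place of 1, the median per B-like cell was 5 in each library and that of T-like cells 0 in each. Marginal zone-like and follicular-like cells then had medians of 5 and 5 in TAS-Seq and of 6 and 4 in BD WTA, against 7 and 6 and 7 and 5 at 1 read. Before thinning, marginal zone-like cells had medians of 76468 reads and 4290 genes in TAS-Seq, against 41467 and 2975 in follicular-like cells. In BD WTA these were 65248 and 2391.5 against 34568 and 1590. The part of this richness in the number of genes of the set detected was not tested.

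**Figure D3:**
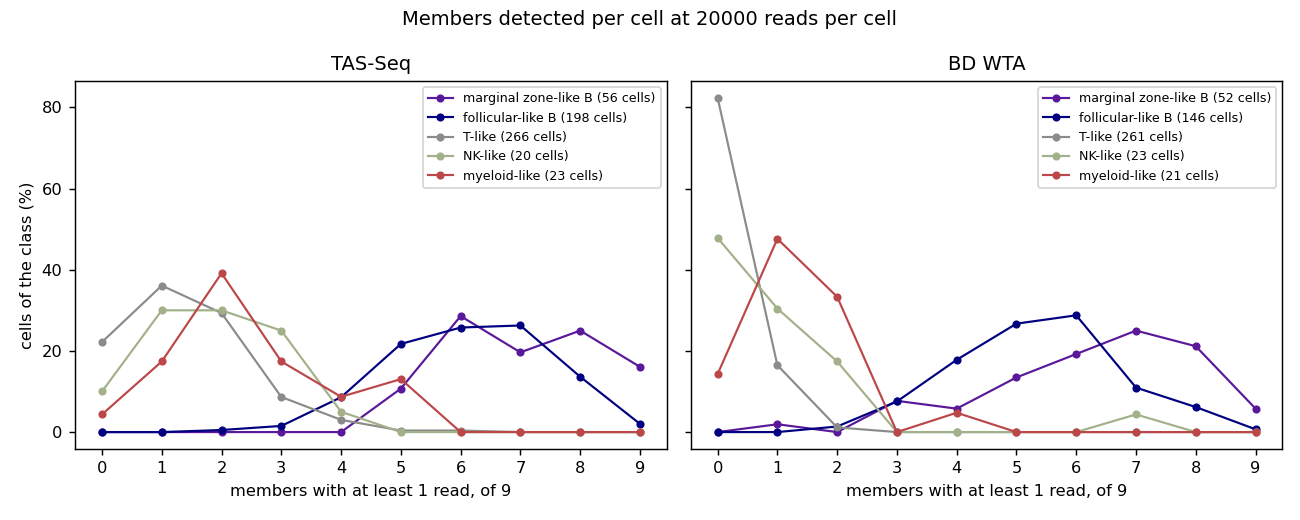
Number of the 9 genes with at least 1 read in a cell thinned to 20000 reads (x axis) and the percentage of cells of the class (y axis), for TAS-Seq and BD WTA. The marginal zone-like line lies to the right of the follicular-like line, with medians of 7 against 6 in TAS-Seq and 7 against 5 in BD WTA. With at least 5 reads a gene the TAS-Seq medians were equal, at 5. Marginal zone-like cells also had more reads and genes per cell before thinning. T-like, NK-like and myeloid-like cells lie mostly at 3 or fewer.

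Between the B-cell states, Blk was higher in marginal zone-like cells, by a fold close to the cutoff of 2. Its pooled level was 490 CPM (469 to 511) in marginal zone-like and 237 CPM (227 to 248) in follicular-like cells of TAS-Seq. In BD WTA the levels were 643 CPM (619 to 667) and 306 CPM (291 to 321). The log2 ratio was 1.04 (0.96 to 1.13) and 1.07 (0.98 to 1.16), and Blk was the one gene of 9 to reach a 2-fold higher level in each library, where 7.2% of all genes in TAS-Seq and 5.47% in BD WTA did. At equal depth Blk was detected in 47 of 56 marginal zone-like against 91 of 198 follicular-like cells in TAS-Seq, and in 38 of 52 against 57 of 146 in BD WTA. Leaving out the 5 cells with the most Blk reads in each class lowered the log2 ratio to 0.91 in TAS-Seq and 0.94 in BD WTA, just under 2-fold. Over all alternatives it ranged from 0.76 to 1.42 and from 0.63 to 2.04. Alternatives with other clustering, or with classes from marker lists, also changed the number of cells in each class.

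With all cells of each class, none of the 9 genes reached a 2-fold lower level in marginal zone-like cells, where 13.5% of all genes in TAS-Seq and 21.2% in BD WTA did. Cd79a was lower by a log2 ratio of -0.43 (-0.46 to -0.40) in TAS-Seq and -0.72 (-0.75 to -0.69) in BD WTA. Cd79b was lower in both as well, by -0.39 and -0.46, and so was Syk, by -0.46 and -0.51. Cd22 was level in TAS-Seq (-0.03, -0.09 to 0.02) and lower in BD WTA (-0.91, -0.99 to -0.83), and Bank1 likewise stood at -0.09 and -0.83. In BD WTA the median log2 ratio over all genes was itself -0.27, and TMM factors moved every ratio there up by 0.18.

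A few cells weighed on these pooled values. The 5 marginal zone-like cells with the most reads of Igkc, the kappa light chain gene, held 78.9% of the Igkc reads of the class in TAS-Seq and 93.0% in BD WTA, and 17.1% and 25.1% of all its reads. In BD WTA the 5 plasma cell markers summed to 25375 CPM in these cells against 535 CPM in the other 47 cells, and in TAS-Seq to 3307 against 410 CPM in the other 52. The BD WTA cells held Cd79a at 1274 CPM, Cd22 at 63.1 CPM and no Lyn read. Without these 5 cells, an alternative chosen after seeing the data, the log2 ratio in BD WTA was -0.44 for Cd79a, -0.19 for Cd79b, -0.55 for Cd22, -0.48 for Bank1 and -0.25 for Syk, closer to 0 in each case. Blk was then at 1.16 in TAS-Seq and 1.29 in BD WTA, so its difference did not rest on them. In TAS-Seq the ratios of Cd79a (-0.40) and Cd79b (-0.43) moved little.

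Blnk differed more in the share of cells than in the pooled level. It was detected in 78.6% of marginal zone-like and 52.0% of follicular-like cells in TAS-Seq, and in 63.5% and 43.2% in BD WTA, all at 20000 reads. A higher share was not particular to Blnk. Syk in BD WTA was detected in 71.2% against 55.5% at a lower pooled level (357 against 509 CPM), whereas Cd22 there was detected in fewer, 69.2% against 77.4%. Marginal zone-like cells had more reads and genes per cell before thinning, and the part of this in these shares was not tested. The pooled log2 ratio of Blnk was 0.41 (0.31 to 0.50) in TAS-Seq and 0.07 (-0.02 to 0.17) in BD WTA. Without the 5 Igkc-rich cells it was 0.25 and 0.39. Btk stood at -0.17 (-0.31 to -0.04) in TAS-Seq and -0.60 (-0.75 to -0.45) in BD WTA, the latter at -0.22 without those cells.

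**Figure D4:**
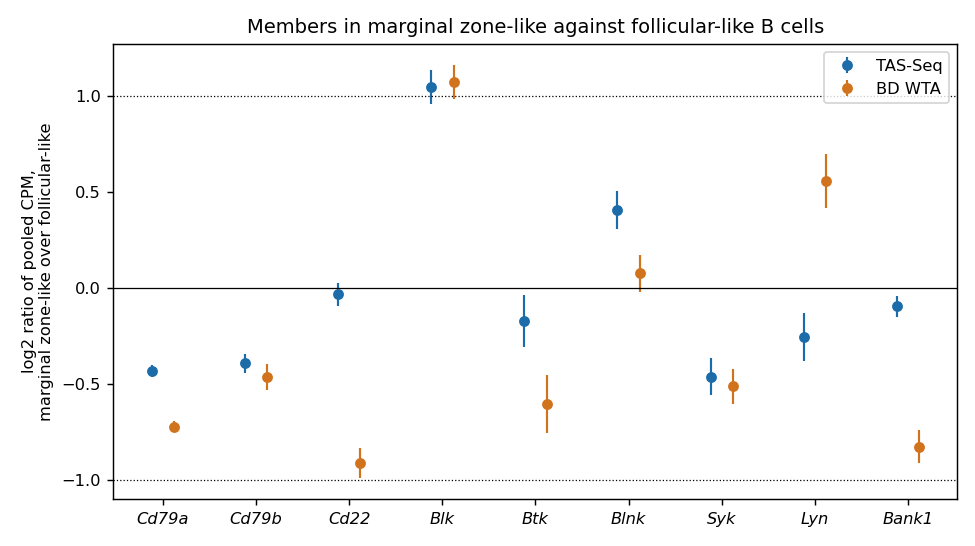
Log2 ratio of pooled CPM of marginal zone-like over follicular-like B cells for each gene, TAS-Seq in blue and BD WTA in orange, with 95% exact counting intervals as bars. Dotted lines mark a 2-fold difference, which only Blk reached, at 1.04 and 1.07, and Lyn lay on opposite sides of 0 in the libraries.

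Over the 7 B-like clusters, Blk had its highest level in the marginal zone-like cluster in both libraries, 3.20 times its lowest cluster in TAS-Seq and 2.52 times in BD WTA. Cd79a and Cd79b had their lowest level in that same cluster in both libraries, and Bank1 had its lowest there in BD WTA. The BD WTA levels of this cluster include the 5 Igkc-rich cells. With them Cd79a stood at 3463 and Cd79b at 646 CPM, and in the other 47 cells at 4198 and 783 CPM. Cd79a varied little, 1.37-fold and 1.72-fold between the lowest and highest cluster. Bank1 varied by 1.17-fold in TAS-Seq and 2.02-fold in BD WTA, and Btk, with the fewest reads, by 2.54-fold and 4.40-fold. From cell to cell the genes of the set were barely correlated. At 20000 reads, the Spearman correlation over the 36 pairs of genes ran from -0.09 to 0.20 (median 0.05) across 386 TAS-Seq B-like cells and from -0.10 to 0.19 (median 0.03) across 328 BD WTA cells, which are values from sparse counts of cells that share 1 library.

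Between the methods, none of the 9 genes differed by 2-fold in B-like cells, where 20.1% of the 9693 genes compared did so in either direction. Bank1 was 1.69-fold and Cd79b 1.66-fold higher in TAS-Seq (log2 ratios 0.76, 0.72 to 0.80, and 0.73, 0.70 to 0.76). Cd79a was 1.54-fold higher in BD WTA (log2 ratio -0.62, -0.64 to -0.60), and Blk 1.44-fold (-0.52, -0.57 to -0.47). Lyn stood at the same level, with a log2 ratio of -0.01 (-0.08 to 0.06). The median of all genes was 0.17, so Cd79b, Cd22 and Bank1 lay above it and the other 6 genes below it, and TMM factors moved it by -0.15. Counting cells with at least 1 read at equal depth, detection was higher in TAS-Seq for all 8 genes that were not found in every cell. The widest margins were those of Bank1 (86.5% against 72.0%), Cd22 (88.1% against 74.4%) and Syk (63.5% against 53.7%). A single read was also found in more T-like cells of TAS-Seq. The T-like shares were 16.2% against 1.92% for Bank1, 18.4% against 3.83% for Cd22 and 7.52% against 1.15% for Syk. Counting B-like cells with at least 5 reads, Blk (36.8% against 42.7%) and Btk (19.9% against 21.3%) were lower in TAS-Seq. The margins shrank for Syk (46.6% against 43.3%), Blnk (34.7% against 33.2%) and Lyn (27.5% against 26.2%). Shares stayed higher in TAS-Seq for Cd79b (90.7% against 75.6%), Cd22 (73.3% against 64.9%) and Bank1 (75.9% against 55.8%). Since the methods were not repeated, method and library cannot be told apart.

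**Figure D5:**
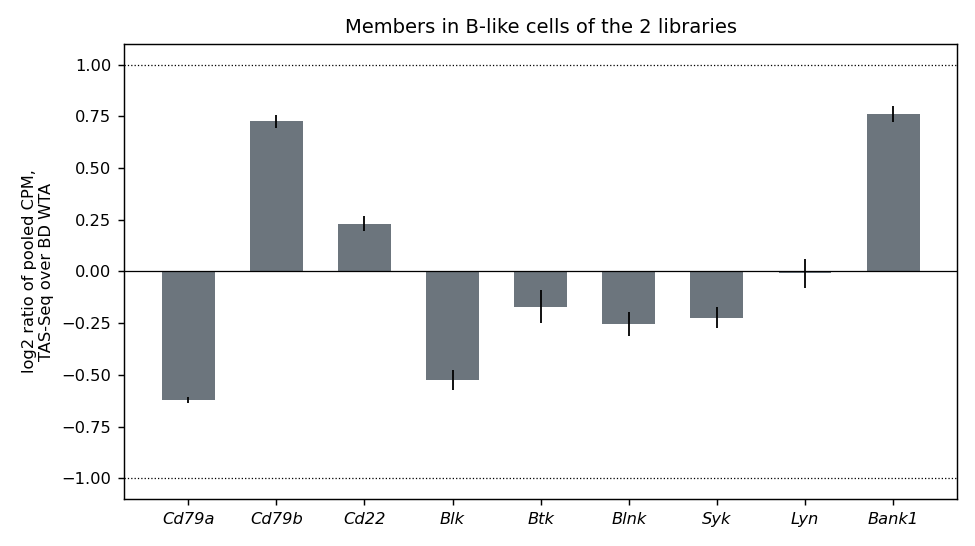
Log2 ratio of pooled CPM of TAS-Seq over BD WTA in B-like cells for each gene, with 95% exact counting intervals as bars. All bars stay within the dotted lines of a 2-fold difference, with Bank1 and Cd79b upward and Cd79a and Blk downward.

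The wider pathway was read from a list of 35 other genes. Of the 34 that passed the filter in TAS-Seq, 25 were at least 2-fold higher in B-like than in T-like cells and 4 at least 2-fold lower, and of 35 in BD WTA 23 were higher and 3 lower. Over all genes compared, 17.0% and 16.6% were higher and 8.35% and 11.4% lower. The median log2 ratio of the list was 1.92 and 1.74. Cr2, the complement receptor, stood at 883 and 914 CPM in B-like cells against 15.3 and 1.37 CPM in T-like cells. Among 10 inhibitory or dampening genes, 8 and 7 were higher, including Fcgr2b, the inhibitory Fc receptor, Siglecg, a lectin receptor related to Cd22, the adaptor Dok3, and Lat2, which stood at 119 and 174 against 1.51 and 0.0808 CPM.

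Of the 6 kinase and phosphatase genes, 2 were higher and 3 lower in B-like cells in each library, to be set beside those same shares of all genes. Zap70, the relative of Syk that works at the T-cell receptor, stood at 3.82 and 0.129 CPM in B-like cells against 91.6 and 96.0 CPM in T-like cells. The adaptors and effectors had 10 of 12 genes higher in TAS-Seq and 9 of 13 in BD WTA, among them Pik3ap1, the adaptor for phosphoinositide 3-kinase, and Rasgrp3, the Ras activator, at 282 and 302 against 2.96 and 4.93 CPM. Between marginal zone-like and follicular-like cells, 4 genes of the list were at least 2-fold higher and 1 lower of 33 in TAS-Seq, and 1 was higher and 8 lower of 30 in BD WTA, where 7.2% and 5.47% of all genes were higher and 13.5% and 21.2% lower. Rasgrp3 was below follicular-like cells by a log2 ratio of -0.87 (-0.99 to -0.76) in TAS-Seq, under 2-fold, and of -1.02 (-1.14 to -0.90) in BD WTA. The genes past 2-fold the same way in both libraries, named after their values were seen, were Sh3bp2, lower by log2 ratios of -1.03 and -1.13, and Nfatc1, higher by 1.11 and 1.12. These counts and ratios between the states include the 5 Igkc-rich marginal zone-like cells of each library. Those cells held 17.1% of the reads of the class in TAS-Seq and 25.1% in BD WTA. No value of the list without them is given here.

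The genes whose levels ran most like each of the 9 were taken over 14 points, 7 classes in each of 2 libraries, among 12089 genes, by Pearson correlation of log2(CPM + 1). Scd1 and Pax5 ran most like Cd79a (r of 0.996 and 0.992), and Iglc2, Fcmr and Iglc1 like Cd79b (0.978 to 0.988). Cd22 and Bank1 were each among the 3 nearest of the other, with r of 0.948, and Irf4 was near both. Blk ran like Gm50318, Mzb1 and Scd1 (0.967 to 0.973), and Blnk like Fam43a, Iglc1 and Cd40 (0.984 to 0.988). Syk had Atf4, Pik3ap1 and Plcg2 nearest (0.900 to 0.919), Lyn had Kctd12, Atf4 and Syk (0.899 to 0.917), and Btk had Serp1, Sh3bp2 and Tcf4 (0.877 to 0.939). The points share libraries and most of the rise is between B-like and other classes, so these are descriptions only.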

How the data were processed

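Both deposited matrices give counts of sequencing reads for each gene in each barcode, which the authors made without unique molecular identifiers and left unnormalized. The submitters' processing notes name cutadapt 2.10, bowtie2 2.4.2 and R 3.6.3; the methods of the study describe mapping on the forward strand to Ensembl transcripts of GRCm38. Those methods give other versions of cutadapt and R, and describe fresh spleen cells in repeated libraries, whereas the labels give frozen cells and 1 library per method; the labels were followed. The methods also describe distribution-based error correction as background subtraction for TAS-Seq matrices; whether it was applied to these tables is not given in the sources used here. Mapping to transcripts lets near copies share reads, and counting reads lets amplification set values.

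Cells with at least 500 genes and at most 0.25 of reads from mitochondrial genes were kept (732 and 708; depth 38656790 and 31608259 reads, median 46515.5 and 38154 reads per barcode, range 11936 to 291602). Cells of both libraries were clustered with scanpy 1.11.5 on 2700 genes (20 components, 10 neighbours, resolution 1.5), leaving out the 9 genes and the pathway list except Cr2. Naming required 3 markers of 1 list raised by a log2 of 1, a threshold chosen once clusters were known. It also required a marker of that lineage, and no more of another, among the 10 genes raised most. Other clusters were left unnamed. Scrublet called 3 and 4 doublets, which were kept. Levels are CPM of the summed reads of a class. A gene had to reach 10 CPM and 10 cells in a class. Intervals are 95% exact Poisson or Clopper-Pearson. A class with no read was set to 3 reads. Calls are folds of at least 2, with no test. The fold calculation was tested on simulated data. TMM factors came from edgeR 4.0.16, used only as an alternative. The genes named are the 9 members and, of the pathway list, the largest 10 by mean log2 ratio of B-like over T-like cells; some of these are not reported here. The 9 genes and the lists were chosen with earlier results of these data known.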

Additional observations from a re-analysis of the deposited data

Results flagged for a closer look

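Lyn ran in opposite directions between the B-cell states of the 2 libraries. The log2 ratio of marginal zone-like over follicular-like cells was -0.26 (-0.38 to -0.13) in TAS-Seq and 0.56 (0.42 to 0.70) in BD WTA, both under 2-fold, and the difference between the libraries was not tested. In the marginal zone-like cells of BD WTA, 5 cells held 55.1% of the Lyn reads, and without the 5 highest cells of each class the ratio there was 0.05. Without the 5 marginal zone-like cells richest in Igkc reads it was -0.26 in TAS-Seq and 0.97 in BD WTA. Clustering each library alone gave 0.45 in TAS-Seq and -0.89 in BD WTA, the opposite signs to those above. That setting did not compare the same sets of cells. In BD WTA it held 110 marginal zone-like and 22 follicular-like cells, against 52 and 152 in the main setting. The class sizes changed in TAS-Seq too. The part of this change of cells in the signs was not tested.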

How the results depend on the processing

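The 9 genes higher in B-like than T-like cells stayed at 9 under all 14 alternatives in each library. Of the alternative values for the counts and the medians per B-like cell, 129 stayed within 1.5 times. The TAS-Seq T-like median of 1 gene per cell went to 0 at 2 or 5 reads and to 2 without thinning. The other 11 were counts of genes differing between states or libraries. Genes at least 2-fold apart between marginal zone-like and follicular-like cells fell from 1 to 0 in TAS-Seq when cells were thinned to 20000 reads, without the 5 cells holding most reads, at resolution 1 and at resolution 2.5, and in BD WTA at resolution 2.5 and with classes from marker lists. Without the 5 cells holding most reads there were 2 in BD WTA, and Blk, then just under 2-fold, was not among them. A fold of 4 gave 0 in each library, and a fold of 1.5 gave 5 in BD WTA. Between the libraries a fold of 1.5 gave 3 genes in place of 0. The counts against NK-like cells ran from 7 to 9 in each library, and against myeloid-like cells from 7 to 8 in TAS-Seq and from 6 to 8 in BD WTA. No ratio of at least 2-fold changed sign. The causes were not tested. No paired analysis was possible because there was 1 library for each method and nothing was tested. Classes of 10 to 26 cells limit the NK-like and myeloid-like values.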

Other observations

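Cells left without a class name, 17 in TAS-Seq and 16 in BD WTA, held Cd79a at 1354 and 1156 CPM, Cd79b at 473 and 202 CPM and Lyn at 182 and 194 CPM. Their clusters raised parts of the marker lists. The cluster with 3 and 7 of these cells raised 3 B-cell and 5 marginal zone markers. That with 12 and 7 raised 3 marginal zone markers, with Stmn1 and Top2a among its top genes. That with 2 and 2 raised 4 monocyte or macrophage, 4 conventional DC and 3 basophil markers, among others. Among the 12 and 12 unnamed cells with 20000 reads, 10 and 5 had at least 5 Cd79a reads. Gm32220, which shares transcript sequence with Cd79a, held 2815 reads in TAS-Seq and 307 in BD WTA B-like cells, and adding them to Cd79a, a choice made after seeing the data, moved its log2 ratio between the methods to -0.56.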
